A study of Mus musculus with 8 samples.

Results

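The 9 genes described here encode the NF-κB transcription factor subunits (Nfkb1, Nfkb2, Rel, Rela and Relb) and proteins grouped with them as feedback inhibitors (Nfkbia, Nfkbiz, Nfkbid and Tnfaip3). The grouping is by name, and a change in the RNA of these genes is not a measure of inhibition. They were chosen by name from the 31053 genes of the deposited tables, and all 9 were found there. The study measured cells of the mouse colonic lamina propria, the connective tissue under the gut epithelium, by droplet single-cell RNA sequencing of transcript 3′ ends with unique molecular identifiers (UMIs). Cells were enriched for CD4+ T cells with a magnetic kit before loading. All mice were C57BL/6, 10 to 12 weeks old and kept specific pathogen free. They were wildtype or carried a serine-to-alanine change in RORγt, the transcription factor of Th17 cells and of group 3 innate lymphoid cells. The series text names this change RORgtS182A and the sample titles S203AKI. Counts of transcript ends do not show a single base change, so these data do not check the genotype. Untreated mice drank plain water. Treated mice drank 2% dextran sulfate sodium (DSS), a chemical that damages the gut lining, for 7 days and plain water for 3 days. Both sets were harvested on day 10. The 4 groups (wildtype untreated, mutant untreated, wildtype after DSS, mutant after DSS) held 2 libraries each, called replicates 1 and 2 in accession order, and the series text describes them as independent biological replicates.

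NF-κB proteins bind DNA as dimers. Nfkb1 and Nfkb2 encode precursors that are processed to p50 and p52, which carry no transactivation domain of their own, while Rel, Rela and Relb encode c-Rel, p65 and RelB, which do. In resting cells IκBα, the product of Nfkbia, holds dimers in the cytoplasm until the IκB kinase marks it for destruction. Nfkbiz and Nfkbid encode IκBζ and IκBNS, IκB relatives that work in the nucleus on p50-containing complexes. Tnfaip3 encodes A20, a ubiquitin-editing enzyme that restrains signalling from TNF, interleukin-1, Toll-like and antigen receptors. Most of these genes are themselves NF-κB targets, so the family forms a feedback circuit, and its members are known for their part in T cell activation and in colitis.

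The libraries held 34497509 to 46960005 UMIs. The CD4 T cells were the 20723 cells, 1778 to 3746 per library, that fell in T cell clusters among the 27420 cells the authors kept. Each kept cell had a Cd4 UMI, but some kept cells formed macrophage-like, fibroblast-like and other clusters. Subsets and other populations were named from markers, with "-like" in full names, and 16 populations with at least 50 cells in every library were tested. Between any 2 libraries 21 to 64 barcodes were shared, and 0 to 9 among the kept cells. Both untreated mutant libraries stood apart: in CD4 T cells the summed level of 9 heat-shock genes was 21912 and 21956 CPM (each gene's UMIs relative to the total of its population and library) there, against 8913 and 13199 in untreated wildtype and 9370 to 11307 after DSS. Mutant untreated replicate 1 also supplied 74.8% of 1 macrophage-like cluster with high heat-shock genes and held UMIs of seminal vesicle and prostate genes (Svs5, Pbsn) in a cluster that came 77.9% from it. Pbsn and Tgm4 were also among the 10 leading genes of the Th1-like cluster. Values without each library are given where they alter a call.

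Start-site windows are shown for Tnfaip3, the member called in the most populations after DSS, and for Nfkbia, Rel and Nfkbid, 3 members that differed in mutant B cell-like cells, because this family is known to act on its own promoters. Nfkb1, Relb and Nfkbiz have no window in the RefSeq table. Each window runs from 250 bases before to 50 bases after an annotated start in RefSeq (GRCm38.p6), and capitals mark matches to the κB consensus on either strand. The sequences are printed 5′ to 3′ on the gene's strand.
Tnfaip3, chr10:19015361-19015660, minus strand: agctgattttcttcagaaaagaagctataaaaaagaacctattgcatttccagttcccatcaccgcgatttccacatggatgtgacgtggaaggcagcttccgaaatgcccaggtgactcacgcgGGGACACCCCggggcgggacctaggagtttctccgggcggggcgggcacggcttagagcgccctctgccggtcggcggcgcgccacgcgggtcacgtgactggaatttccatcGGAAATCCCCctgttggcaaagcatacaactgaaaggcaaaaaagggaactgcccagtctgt
Nfkbia, chr12:55492598-55492897, minus strand: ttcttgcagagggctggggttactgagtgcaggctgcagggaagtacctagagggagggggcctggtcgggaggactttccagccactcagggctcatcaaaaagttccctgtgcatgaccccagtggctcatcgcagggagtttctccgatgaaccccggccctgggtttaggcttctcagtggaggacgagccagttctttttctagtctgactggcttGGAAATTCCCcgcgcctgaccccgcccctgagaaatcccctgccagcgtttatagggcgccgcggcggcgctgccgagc
Rel, chr11:23770920-23771219, minus strand: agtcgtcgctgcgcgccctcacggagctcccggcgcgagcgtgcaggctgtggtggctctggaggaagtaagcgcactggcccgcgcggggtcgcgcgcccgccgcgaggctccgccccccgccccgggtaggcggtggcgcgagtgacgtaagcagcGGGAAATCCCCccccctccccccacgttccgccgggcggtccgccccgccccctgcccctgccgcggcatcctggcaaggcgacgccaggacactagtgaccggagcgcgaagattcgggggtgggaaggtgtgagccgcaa
Nfkbid, chr7:30422156-30422455, plus strand: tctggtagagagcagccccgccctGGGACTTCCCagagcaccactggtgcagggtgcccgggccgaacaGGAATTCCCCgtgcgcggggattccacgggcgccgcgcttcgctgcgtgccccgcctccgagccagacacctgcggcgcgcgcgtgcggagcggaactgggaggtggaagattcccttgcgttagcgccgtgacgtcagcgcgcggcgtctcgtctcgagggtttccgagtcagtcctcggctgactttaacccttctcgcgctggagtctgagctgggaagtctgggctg

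In the Tnfaip3 window the matches lie 125 and 12 bases upstream of the start, and in the Nfkbia window the match lies 29 bases upstream. Tnfaip3 has a second annotated start, and its window, not printed, held no match. The 2 Rel matches overlap and lie 92 and 91 bases upstream. The Nfkbid window belongs to the second of 3 annotated starts, and its matches lie 226 and 181 bases upstream. In all, 6 members had 11 windows in the RefSeq table, and 7 of the 11 windows, from 5 of the 6 members, held a match. The 3 windows of Nfkb2 each held at least 1, but the second and the third overlap and share a match, so the 7 windows are not separate. The Rela window held none. Among 32851 windows of the same length 4.51% held a match, and of the 27025 genes with a window 5.14% had one in at least 1 window. A match is a description of these letters and not a measured site. On GRCm38 the genes span chr3:135584655-135691547 for Nfkb1, chr19:46304320-46312385 for Nfkb2, chr11:23736847-23770970 for Rel, chr19:5637483-5648130 for Rela, chr7:19606217-19629438 for Relb, chr12:55489410-55492647 for Nfkbia, chr16:55811375-55838899 for Nfkbiz, chr7:30421732-30428746 for Nfkbid and chr10:19000910-19015657 for Tnfaip3.

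The spread over cell types was similar for some members and not for others. Across 18 populations the Pearson r of log2(CPM + 1) between members ran from -0.00163 for Relb and Nfkbia to 0.894 for Rel and Nfkbid. It was 0.865 for Nfkb1 and Tnfaip3 and 0.841 for Nfkbia and Nfkbiz. Levels are given as the mean CPM ± SD over libraries, from UMIs summed per population, and compare 1 gene between populations, never 2 genes with each other. They carry no test, because the same cells were used to define the clusters. CPM is a share of a population's UMIs, and in plasma cell-like cells 6 plasma cell markers alone took 152864 to 223357 CPM. The part of this in the low levels of plasma cell-like cells was not tested. Of the precursor genes, Nfkb1 was highest in ILC3-like cells (935 ± 84.9, n = 8) and macrophage- or monocyte-like cells (881 ± 255, n = 8) and lowest in plasma cell-like cells (63.8 ± 17.2, n = 8). Nfkb2 was also highest in ILC3-like cells (199 ± 39.2, n = 8), followed by Th17-like cells (184 ± 29.6, n = 8). The lowest Nfkb2 level was in squamous epithelium-like cells (24.3 ± 6.87, n = 3). All 3 of these libraries were DSS libraries, so cell type and treatment cannot be told apart there.

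Of the subunits with a transactivation domain, Rel was concentrated in antigen-presenting cells. Its level was 1185 ± 106 (n = 8) in dendritic cell-like and 1114 ± 151 (n = 8) in B cell-like cells, which lie within 1 SD of each other. The next population, macrophage- or monocyte-like cells, was at 702 ± 96.4 (n = 8), and smooth muscle- or pericyte-like cells were lowest at 60.4 ± 25.05 (n = 8). Relb was highest in dendritic cell-like cells (193 ± 24.8, n = 8), more than 1 SD above ILC3-like cells (152 ± 26.1, n = 8). Rela varied least, with a 3.84-fold range from plasma cell-like cells (42.2 ± 6.54, n = 8) to enteric glia-like cells (162 ± 3.41, n = 2). The 2 enteric glia-like libraries were both untreated, with 50 cells in wildtype replicate 1 and 70 in mutant replicate 1. In the order of Rela levels 15 of 16 neighbouring populations lay within 1 SD of each other.

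Among the genes grouped as inhibitors, Nfkbia was highest in endothelium-like cells (1926 ± 317, n = 8) and lowest in plasma cell-like cells (316 ± 63.7, n = 8). Enteric glia-like cells came second for Nfkbia (1749 ± 170, n = 2), within 1 SD of endothelium-like cells. Nfkbiz was highest in macrophage- or monocyte-like cells (365 ± 39.5, n = 8), with endothelium-like cells next (348 ± 84.7, n = 8). Nfkbid stood out in B cell-like cells at 182 ± 51.2 (n = 8). The next population, T cells outside the authors' list, was at 64.7 ± 14.2 (n = 8), and the lowest was smooth muscle- or pericyte-like cells at 6.24 ± 4.88 (n = 8). Tnfaip3 was highest in Th17-like (1022 ± 269, n = 8) and Th1-like cells (975 ± 247, n = 8), with ILC3-like cells next (925 ± 232, n = 8). Its lowest level was in plasma cell-like cells (65.9 ± 19.7, n = 8). All 16 neighbouring pairs in the Tnfaip3 order lay within 1 SD, as did 14 for Nfkb1, 12 for Nfkb2, 11 for Rel, 10 for Relb, 13 for Nfkbia, 14 for Nfkbiz and 14 for Nfkbid.

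**Figure D1:**
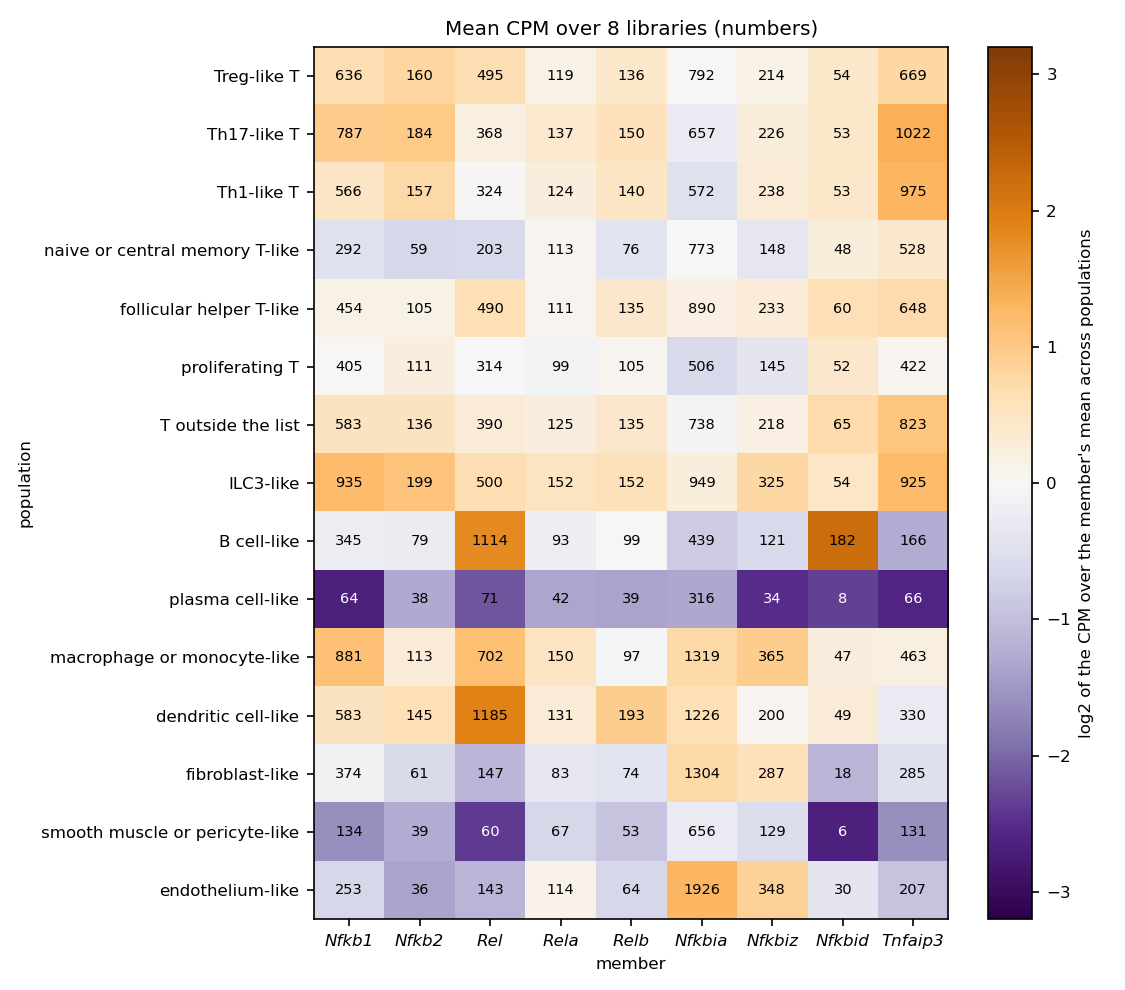
Mean level of each member (columns) in the 15 named populations with at least 50 cells in all 8 libraries (rows), leaving out CD4 T cells as a whole. The numbers are CPM and the colours the log2 ratio to that member's own mean over populations, so colours compare populations within a column. Nfkbid is dark orange in B cell-like cells at 182 CPM, and plasma cell-like cells are purple in every column.

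The genes whose pattern over 18 populations was most like a member's, by Pearson r of log2(CPM + 1) among 10077 genes with at least 20 CPM somewhere, are given as the first 3 for each member. Each of the 18 points is a population averaged over its libraries with at least 50 cells. These were 1 library for neutrophil-like cells (mutant DSS replicate 1), 2 for enteric glia-like, 3 for squamous epithelium-like and 8 for the other populations. In the first 3 of these, cell type and treatment cannot be told apart. The points share libraries, so r is a description. Zc3h12a, which encodes the RNA-degrading regulator Regnase-1, came first for Nfkb1 (r = 0.959), ahead of Ppp2ca (0.940) and Rest (0.926). For Nfkb2 the closest were Cyth4 (0.957), the TNF receptor gene Tnfrsf1b (0.943) and Rab8b (0.938). Rel was followed by Grb2 (0.935), Stap1 (0.930) and Malt1 (0.918), a protease of antigen-receptor signalling. Rela was closest to Dnaja1 (0.936), Usp37 (0.889) and Rlim (0.887), and Relb to Tmem123 (0.932), Birc2 (0.931) and Jak2 (0.929). Of the genes grouped as inhibitors, Nfkbia was closest to Csrnp1 (0.894), Ifih1 (0.892) and Tcn2 (0.886), and Nfkbiz to Susd6 (0.914), Erbin (0.910) and Mfsd14b (0.905). Nfkbid was closest to Lemd3 (0.934), Safb2 (0.933) and Smg1 (0.932), and Tnfaip3 to the interferon-γ receptor gene Ifngr1 (0.950), Dnajb6 (0.942) and Ppm1h (0.938).

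In CD4 T cells DSS raised 1 member, Tnfaip3. Its level was 706 and 603 CPM in the untreated wildtype libraries, 561 and 666 in the untreated mutant ones, 759 and 908 in wildtype after DSS and 955 and 886 in mutant after DSS. All 4 DSS libraries were above all 4 untreated ones, as they were for 17.5% of all genes tested. Averaged over genotypes the log2 fold change was 0.39 ± 0.10 (SE, edgeR quasi-likelihood test, adjusted p = 0.0250). The SE of each edgeR estimate is its absolute value divided by the square root of the F statistic. It therefore adds nothing to the p-value of that test. By the same test 18.4% of the 11055 genes were called at an adjusted p under 0.05, in either direction, so 1 of 9 members is near that background. An exact two-sided permutation test of the 4 against 4 libraries gave p = 0.0286 for Tnfaip3, the smallest p it can give, and 0.114 to 0.971 for the other 8 members, not adjusted for the 9 tests. The CPM values and this permutation lack the scaling between libraries that the edgeR fit uses. Without that scaling the median log2 fold change of all genes tested was 0.08, against 0.01 with it. The Tnfaip3 call was lost without wildtype untreated replicate 2 (edgeR adjusted p = 0.120, the highest of the 8 removals), mutant untreated replicate 1 or wildtype DSS replicate 2.

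The other 8 members did not pass in CD4 T cells, and their averaged DSS estimates ran from -0.28 to 0.23 on the log2 scale. Nfkb1 was at 501, 450, 470 and 629 CPM untreated and 650, 607, 770 and 502 after DSS, so the groups overlapped (0.23 ± 0.14, edgeR adjusted p = 0.278). Nfkbia, the IκBα gene, was at 519, 699, 702 and 1028 CPM untreated and 728, 613, 656 and 536 after DSS. Its highest library was an untreated mutant one, and its estimate was -0.28 ± 0.15 (edgeR adjusted p = 0.215). Nfkb2, Rela, Relb and Nfkbiz spanned 111 to 172, 105 to 140, 107 to 163 and 164 to 289 CPM over the 8 libraries, with treated and untreated libraries mixed. Over the 8 libraries these values rest on 3408 UMIs for Nfkbid, the fewest, and 50776 for Tnfaip3, the most.

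**Figure D2:**
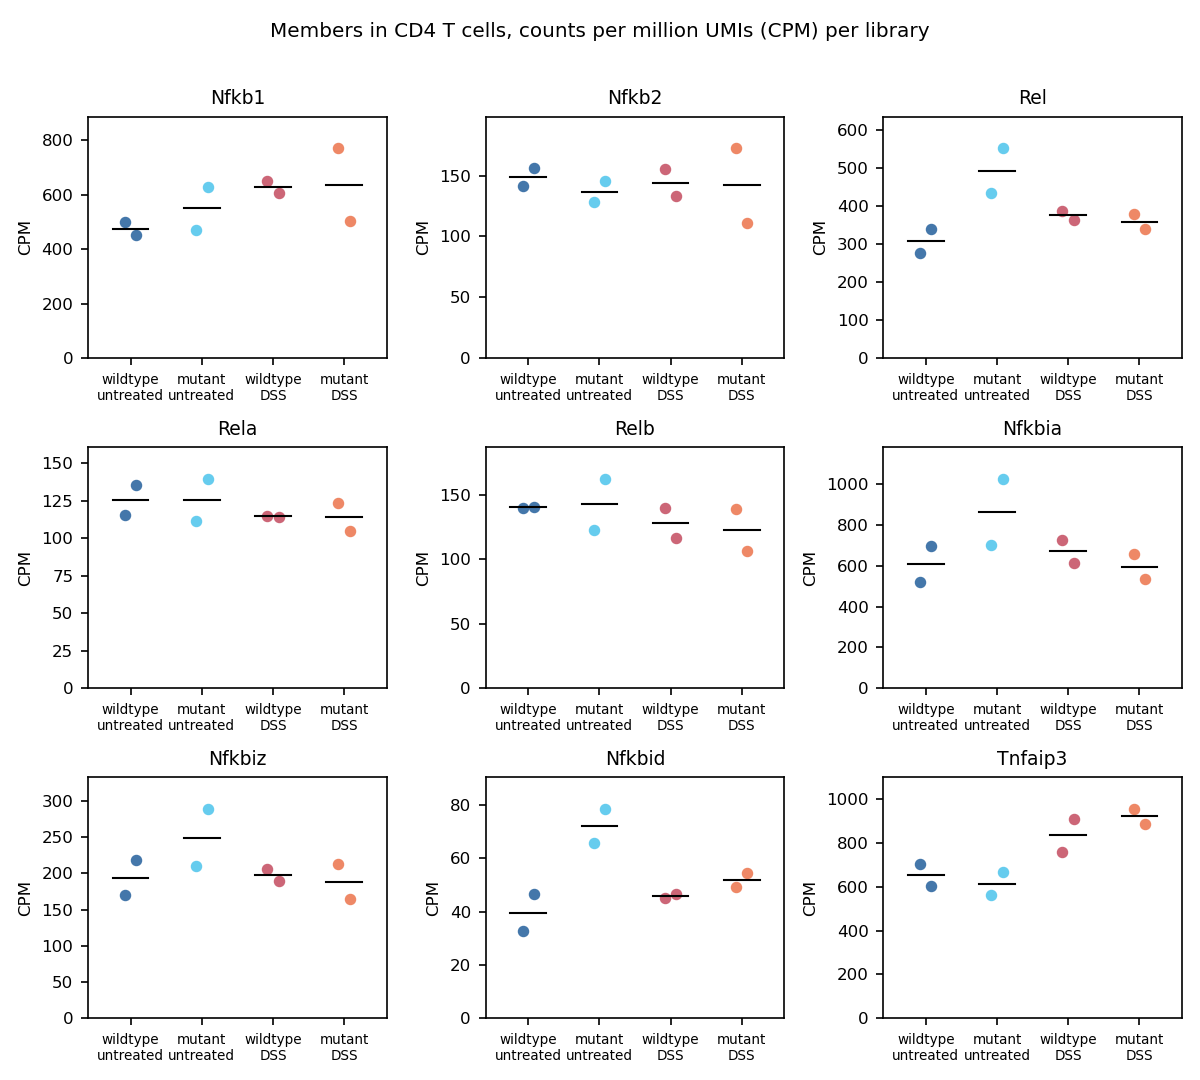
Level of each member in CD4 T cells in CPM, 1 point per library and a bar at the mean of the 2 libraries of each group. Tnfaip3 after DSS (759 to 955 CPM) lies above all untreated libraries (561 to 706), and Rel and Nfkbid are highest in the 2 untreated mutant libraries.

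Within genotypes, 0 of 9 members were called for DSS in wildtype (0.208% of genes called) and 0 of 9 in mutant (4.94%). With an unadjusted p under 0.05 there were 0 members in wildtype (18.6% of genes) and 5 in mutant (26.7%). DESeq2 called 3 in mutant, Nfkbia (adjusted p = 0.0317), Rel (0.0194) and Tnfaip3 (0.0171), and 6.25% of the genes to which it gave an adjusted p. The Tnfaip3 estimate was 0.28 ± 0.14 in wildtype (edgeR adjusted p = 0.315) and 0.50 ± 0.14 in mutant (0.0598). In mutant, the lowest estimates were those of Nfkbia (-0.62 ± 0.21, edgeR adjusted p = 0.101), Nfkbid (-0.56 ± 0.16, 0.0699) and Rel (-0.54 ± 0.15, 0.0625), and none of them passed by edgeR. The make-up of the CD4 T cells differed between the treatments. Treg-like cells were 10.8 to 14.5% of them untreated and 20.6 to 26.9% after DSS, and Th17-like cells ranged from 8.06 to 35.0% over the libraries. The summed level of 12 macrophage markers in CD4 T cells was 272 to 571 CPM untreated and 440 to 730 after DSS, which is 1.54 to 6.79% of that in macrophage-like cells of the same library, with none of the 12 at 0. The 6 T cell markers themselves summed to 3075 to 3576 CPM untreated and 2509 to 2976 after DSS, without overlap, and was also lower without overlap in every named subset but naive or central memory T-like cells. The part of these in the Tnfaip3 result was not tested, and the subsets are given below.

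Over 3 lists of the wider pathway, 7 of 35 genes were called in CD4 T cells after DSS, 6 higher and 1 lower, where 9.15% of all genes rose and 9.22% fell. That share is near the 18.4% of all genes called. Of the 10 upstream kinase genes 3 rose, namely Map3k7 (0.35), Tab2 (0.37) and Ikbke (0.44 on the log2 scale), which encode TAK1, its adaptor TAB2 and the kinase IKKε. Of the 11 TNF-receptor genes 2 rose, the receptor gene Tnfrsf1b (0.80) and the ubiquitin ligase gene Birc2 (0.41). Among 14 other inhibitors Bcl3, a nuclear IκB relative, rose (0.45) and Otulin, a remover of linear ubiquitin, fell (-0.45). The medians of these 3 lists were 0.14, 0.05 and -0.12, beside 0.01 for all genes tested.

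Of 25 textbook NF-κB targets 6 rose and 5 fell, with a median of -0.04, beside the same 9.15% and 9.22% of all genes. Il2ra (0.65), the high-affinity interleukin-2 receptor chain, was higher. So were Vcam1 (2.39) and Ccl2 (1.81), genes that stromal and myeloid cells are known to express strongly, while Gadd45b (-0.83), a stress-response gene, was lower. Of 20 handling and heat-shock genes 10 fell and 1, Zfp36, rose (0.54), with a median of -0.50, beside those same shares and a median of 0.01 for all genes. The transcription factor genes Atf3 (-2.19) and Jund (-0.85) were among those that fell. Beside these stand the macrophage marker and heat-shock levels given above, and their part in the list counts was not tested. For DSS in mutant alone 2 targets rose and 4 fell, 9 handling and heat-shock genes fell, Tnfrsf1b rose and Otulin fell, where 4.94% of all genes were called in either direction. For DSS in wildtype alone Zfp36 was the 1 gene of these 5 lists called, where 0.208% of all genes were. In the mutant contrasts and in the interaction no gene of the 5 lists was called by edgeR, and DESeq2 was not read out for the lists.

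DSS raised Tnfaip3 in most of the tissue's populations. Averaged over genotypes, 25 of 143 tests of a member in a population were called, beside 12.4% of the tests of all genes in the same 16 populations. Outside CD4 T cells as a whole, Treg- and Th17-like cells 22 were called, and 10 to 23 when 1 library was left out. Of the 25, 14 were Tnfaip3, higher in 14 of the 16 populations. Its estimate was above 0 in 15 of 16 populations, and when the genotypes were fitted separately in 15 of 16 in wildtype and 16 of 16 in mutant. In 15 of 16 populations its 4 DSS libraries all lay above the 4 untreated ones in CPM, without the scaling of the edgeR fit. Over the 16 populations this held for 11.9% of the tests of all genes, with 20.9% in macrophage- or monocyte-like cells, 20.4% in T cells outside the authors' list, 13.2% in dendritic cell-like, 11.3% in B cell-like and 10.6% in fibroblast-like cells and 6.74 to 10.2% in the other populations apart from CD4 T cells. The comparisons of a population share their libraries, and CD4 T cells contain the subsets, so the 14 calls are not independent of each other. Without wildtype untreated replicate 2 the Tnfaip3 call was lost in CD4 T cells and in Treg-, Th17- and naive or central memory T-like cells. It was also lost in macrophage- or monocyte-, dendritic cell- and smooth muscle- or pericyte-like cells. Nfkb1 was higher in 4 populations, and Rela, Nfkbiz, Nfkbid and Nfkbia were called in 1 or 2 each. Nfkb2, Rel and Relb were called in none. With Tnfaip3 left out, the share of the members' tests that were called was below the 12.4% of all genes.

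**Figure D3:**
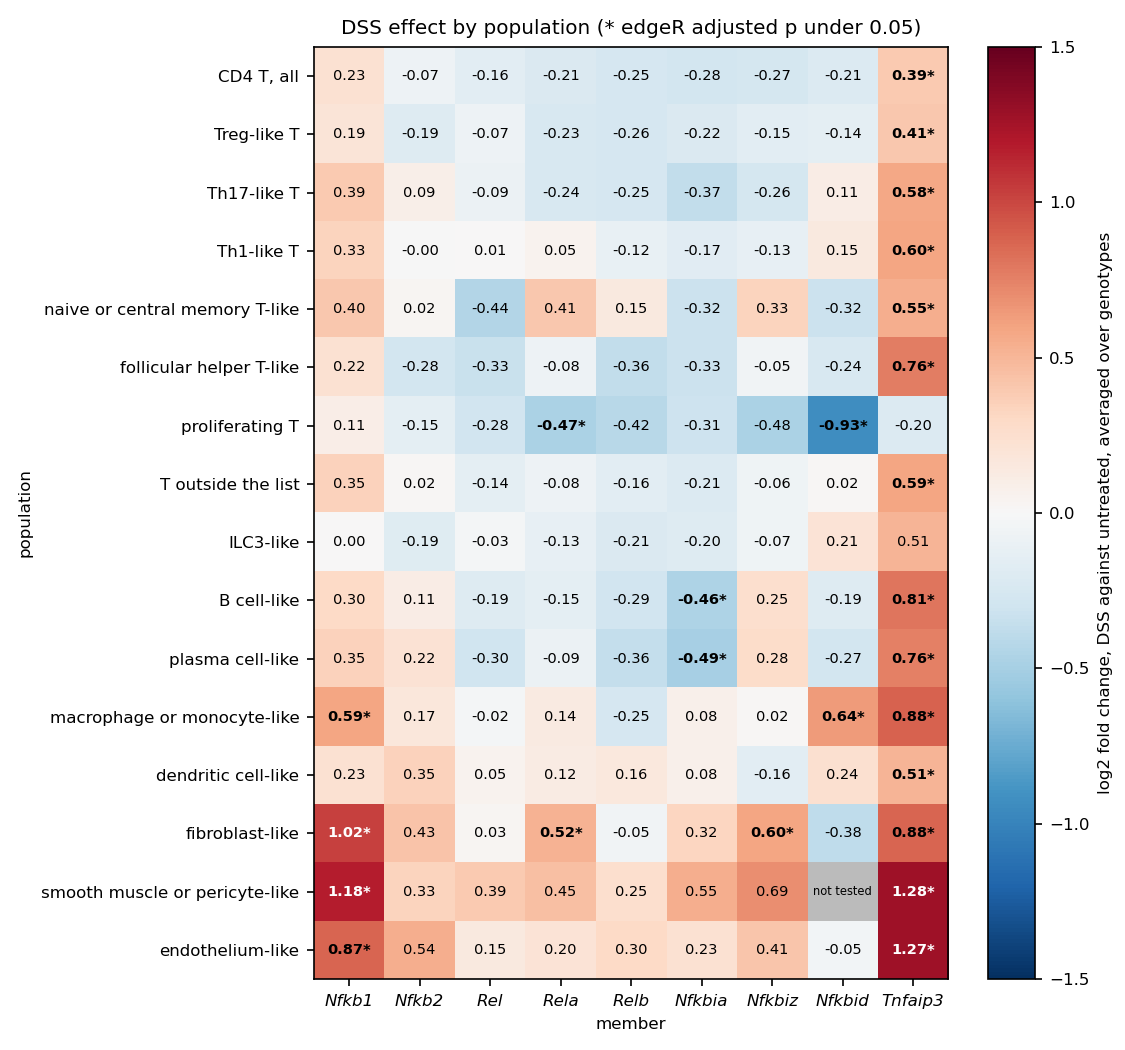
Log2 fold change after DSS, averaged over genotypes, for each member (columns) in the 16 tested populations (rows), with bold and an asterisk where the edgeR adjusted p was under 0.05. The Tnfaip3 column is red in all rows but proliferating T cells, and Nfkb1 passes in macrophage-, fibroblast-, smooth muscle- and endothelium-like cells.

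Tnfaip3 was called in 5 of the 6 named CD4 T subsets, all but the proliferating cells. Th17-like cells held 919, 784, 682 and 821 CPM untreated and 1013, 1345, 1204 and 1406 after DSS, with no overlap. The estimate was 0.58 ± 0.12 (edgeR adjusted p = 0.00704), 1 of 9 members called where 5.69% of genes were called. Treg-like cells were at 649, 543, 488 and 591 CPM untreated and 696, 778, 827 and 778 after DSS, also without overlap. Their estimate was 0.41 ± 0.10 (edgeR adjusted p = 0.0206), 1 of 9 members where 10.4% of genes were called. The call was lost without wildtype untreated replicate 2 or mutant untreated replicate 1 in both subsets, and also without wildtype DSS replicate 2 in Treg-like cells.

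The cluster named follicular helper T-like had the haemoglobin genes Hbb-bs, Hba-a1, Hbb-bt and Hba-a2 among its 10 leading genes beside Sostdc1 and the marker Cxcr5. Tnfaip3 rose by 0.60 ± 0.11 in Th1-like cells (13.2% of genes called) and by 0.76 ± 0.11 in follicular helper T-like cells (7.19%), and both calls stood without any 1 library. In Th1-like cells its level was 680 to 828 CPM untreated and 1061 to 1270 after DSS, and in follicular helper T-like cells 428 to 506 and 686 to 962. Naive or central memory T-like cells (0.55 ± 0.15, 5.37% called) lost the call without any of 5 libraries (both mutant untreated ones, wildtype untreated replicate 2, wildtype DSS replicate 2 or mutant DSS replicate 1). The T cells outside the authors' list showed the same direction (0.59 ± 0.10, 21.4% of genes called). In each of these 4 populations Tnfaip3 was 1 of 9 members called.

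Proliferating T cells showed another set of members. There 2 of 9 members were called, Nfkbid and Rela, both lower after DSS (10.7% of genes called), and the Tnfaip3 estimate was -0.20 ± 0.10 with overlapping groups. Nfkbid held 39.4, 52.0, 76.2 and 110 CPM untreated and 25.9, 36.7, 36.4 and 40.9 after DSS, from 40 to 134 UMIs per library. The wildtype untreated and the DSS libraries overlapped narrowly, and the 2 untreated mutant libraries were highest. Nfkbid fell by 0.93 ± 0.17 on the log2 scale (edgeR adjusted p = 0.00277), and leaving out any 1 library kept the call. Its heat-shock sums, 18347 and 19502 CPM in the untreated mutant libraries against 8106 to 13194 in the other 6, were highest in those same 2 libraries. The 20 handling and heat-shock genes summed to 13329 to 23979 CPM untreated and 10641 to 13198 after DSS in these cells, without overlap, and the part of either in these results was not tested. Rela fell by 0.47 ± 0.13 (edgeR adjusted p = 0.0285), a call that DESeq2 did not make and that held without only 2 of the 8 libraries (mutant untreated replicate 1 and mutant DSS replicate 1). In ILC3-like cells no member was called (2.01% of genes called), and Tnfaip3 was at 606 to 901 CPM untreated and 961 to 1257 after DSS (0.51 ± 0.14, edgeR adjusted p = 0.0634).

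In the B lineage Tnfaip3 rose and Nfkbia fell when averaged over genotypes. B cell-like cells held 131, 130, 83.5 and 119 CPM of Tnfaip3 untreated and 222, 223, 239 and 178 after DSS, with no overlap, from 67 to 369 UMIs. The log2 fold change was 0.81 ± 0.13 (edgeR adjusted p = 0.000412) and passed without any 1 library. Nfkbia was at 417, 439, 535 and 590 CPM untreated and 465, 410, 375 and 282 after DSS. The wildtype libraries overlapped, with means of 428 CPM untreated and 438 after DSS, and the 2 untreated mutant libraries, those with the high heat-shock sums (23229 and 21482 CPM in these cells), were highest. The part of those genes in the result was not tested. The averaged estimate was -0.46 ± 0.12 (edgeR adjusted p = 0.0112), against -0.05 ± 0.17 in wildtype alone (0.928), and the call was lost without wildtype untreated replicate 2, mutant untreated replicate 2 or wildtype DSS replicate 2. These were 2 of 9 members, where 13.3% of genes were called. Plasma cell-like cells, at much lower Tnfaip3 levels, held 39.9 to 53.6 CPM untreated and 73.4 to 97.6 after DSS. Tnfaip3 rose there by 0.76 ± 0.12 and Nfkbia fell by 0.49 ± 0.11 (edgeR adjusted p = 0.00661 and 0.0260), 2 of 9 members where 6.74% of genes were called. In these cells 6 plasma cell markers summed to 152864 to 164509 CPM untreated and 187753 to 223357 after DSS, without overlap. Their heat-shock sums were highest in the untreated mutant libraries (8550 and 10156 CPM, against 2392 to 5405 in the other 6), and the part of either in these results was not tested. The plasma cell Nfkbia call was lost without any of 5 libraries (both mutant untreated ones, wildtype untreated replicate 2, wildtype DSS replicate 2 or mutant DSS replicate 2).

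Macrophage- or monocyte-like cells gave 3 of 9 members, all higher after DSS, where 21.3% of genes were called. Tnfaip3 was at 354, 307, 200 and 360 CPM untreated and 643, 541, 658 and 639 after DSS, with no overlap (0.88 ± 0.18, edgeR adjusted p = 0.0106). Nfkb1 was at 846, 674, 454 and 688 CPM untreated and 1066, 1057, 1108 and 1154 after DSS, again separate (0.59 ± 0.16, adjusted p = 0.0237). Nfkbid, whose product damps inflammatory gene induction in macrophages, was at 27.5, 30.7, 42.2 and 37.0 CPM untreated and 47.0, 56.0, 53.5 and 79.6 after DSS. Its estimate was 0.64 ± 0.14 (edgeR adjusted p = 0.0131), from 113 to 332 UMIs. The summed heat-shock level was 28160 and 28338 CPM in the untreated mutant libraries, 8858 and 13689 in untreated wildtype and 6797 to 11644 after DSS. The summed level of the 12 macrophage markers was 15292 to 20411 CPM untreated and 10414 to 11852 after DSS, and that of 6 neutrophil markers 159 to 213 and 218 to 428, both without overlap. The part of these levels in the results was not tested. The lowest untreated values of Tnfaip3 and Nfkb1 came from mutant untreated replicate 1, the library behind the heat-shock-high cluster. Without that cluster the same library was still the lowest untreated one, at 217 CPM of Tnfaip3 and 536 of Nfkb1. The estimates of Tnfaip3, Nfkb1 and Nfkbid were then 0.85, 0.53 and 0.64. In the largest cluster alone, led by C1qa, C1qb and C1qc, they were 1.07, 0.66 and 0.76, and the 3 genes were called in both fits. Leaving out that cluster kept 579 of the 615 cells of mutant untreated replicate 2, so it cannot show the part of the heat-shock levels. Without wildtype untreated replicate 2 none of the 3 passed. Nfkb1 also lost the call without mutant untreated replicate 1 or either wildtype DSS library, and Nfkbid without wildtype DSS replicate 2. In dendritic cell-like cells Tnfaip3 alone was called (0.51 ± 0.13, edgeR adjusted p = 0.0172), 1 of 9 members where 14.6% of genes were, with 237 to 287 CPM untreated and 318 to 542 after DSS. The summed level of 6 T cell markers in these cells was also higher after DSS without overlap, at 597 to 680 CPM untreated and 715 to 1130 after DSS, or 19.2% and 33.2% of the CD4 T cell level. So was that of 6 neutrophil markers, at 183 to 335 and 476 to 664 CPM, and the part of either in the Tnfaip3 result was not tested. That call was lost without wildtype untreated replicate 2, mutant untreated replicate 1, wildtype DSS replicate 1 or mutant DSS replicate 2.

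The largest Nfkb1 differences were in stromal cells. Fibroblast-like cells had 4 of 9 members called, all higher, where 21.6% of genes were called. Nfkb1 was at 326, 241, 205 and 256 CPM untreated and 418, 541, 469 and 535 after DSS, with no overlap (1.02 ± 0.16, edgeR adjusted p = 0.00458). Tnfaip3 rose by 0.88 ± 0.15, from 245, 235, 174 and 184 CPM to 287, 379, 339 and 436. Nfkbiz was at 248, 250, 213 and 236 CPM untreated and 325, 363, 291 and 375 after DSS (0.60 ± 0.13, edgeR adjusted p = 0.0164). Rela was at 72.6, 78.1, 63.6 and 67.8 CPM untreated and 85.3, 106, 85.2 and 103 after DSS (0.52 ± 0.13, edgeR adjusted p = 0.0265). Leaving out any 1 library kept the Nfkb1 and Tnfaip3 calls, but 5 of the 8 removals ended that of Nfkbiz (all 4 untreated libraries and wildtype DSS replicate 2) and 6 that of Rela (the same 5 and mutant DSS replicate 2).

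The shares of the clusters behind the fibroblast-like cells differed before and after DSS. A cluster led by C1qtnf3, Adamdec1 and Clec3b held 43.8 to 49.7% of them in untreated libraries and 2.12 to 18.3% after DSS. A cluster led by Cxcl13, the immunoglobulin gene Ighg2c, Il11 and Grem1 held 0.254 to 1.26% and 15.9 to 49.6%. The summed level of 6 plasma cell markers in fibroblast-like cells was 2621 to 4119 CPM untreated and 10050 to 20396 after DSS, with none of the 6 at 0, and its part in the results was not tested. In the largest cluster with at least 50 cells in every library, led by Lum, Dcn and Mgp, the Nfkb1 estimate was 0.64 ± 0.19 (edgeR adjusted p = 0.0417) and that of Tnfaip3 0.98 ± 0.16 (0.000817). Nfkbiz was also called there (0.46 ± 0.14, edgeR adjusted p = 0.0462), while Rela was not (0.14 ± 0.17, 0.638). The summed level of 20 handling and heat-shock genes was 38455 to 39898 CPM in untreated fibroblast-like cells and 23361 to 26207 after DSS, and its part in these results was not tested.

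Smooth muscle- or pericyte-like cells had 2 of 8 tested members called (3.09% of genes called), and Nfkbid was too low to test. Nfkb1 was at 75.1, 98.5, 63.5 and 77.6 CPM untreated and 141, 250, 193 and 174 after DSS, separate in all libraries (1.18 ± 0.20, edgeR adjusted p = 0.0164). Tnfaip3 was at 52.3, 94.8, 53.6 and 90.3 CPM untreated and 95.8, 204, 161 and 296 after DSS (1.28 ± 0.30, adjusted p = 0.0477), from 49 to 184 UMIs. The lowest DSS value lay just above the highest untreated one, and leaving out any of 5 libraries ended the Tnfaip3 call (both wildtype untreated ones, mutant untreated replicate 1, wildtype DSS replicate 2 or mutant DSS replicate 2). The Nfkb1 call was lost without wildtype untreated replicate 1, wildtype DSS replicate 2 or mutant DSS replicate 2.

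Endothelium-like cells also had 2 of 9 members called, where 4.15% of genes were called. Tnfaip3 was at 180, 106, 107 and 96.0 CPM untreated and 239, 323, 338 and 266 after DSS (1.27 ± 0.19, edgeR adjusted p = 0.00627), and passed without any 1 library. The 20 handling and heat-shock genes summed to 39757 to 46709 CPM untreated and 27589 to 35258 after DSS in these cells, without overlap, and their part in both results was not tested. Nfkb1 was at 283, 150, 156 and 130 CPM untreated and 263, 317, 390 and 333 after DSS. Wildtype untreated replicate 1 lay above the lowest DSS library, and the estimate was 0.87 ± 0.20 (edgeR adjusted p = 0.0318). That call was lost without 5 of the 8 libraries (both mutant untreated ones, wildtype untreated replicate 2, wildtype DSS replicate 2 or mutant DSS replicate 2). In the largest endothelium-like cluster alone, with Fabp4, Flt1 and Plvap among its leading genes, the Tnfaip3 estimate was 1.40 ± 0.21 and that of Nfkb1 0.90 ± 0.22 (edgeR adjusted p = 0.00414 and 0.0412). Free RNA of T cells, where Tnfaip3 is high, can enter other barcodes. The summed T cell markers of the same libraries were at most 20.3% of the CD4 T cell level in fibroblast-like, 12.4% in B cell-like, 10.5% in macrophage- or monocyte-like, 7.13% in endothelium-like, 6.97% in plasma cell-like and 6.74% in smooth muscle- or pericyte-like cells. They reached 45.0% in dendritic cell-like and 43.0% in ILC3-like cells. None of the 6 markers was at 0 in any of these populations. Their mean share was 5.48% untreated and 8.34% after DSS in macrophage- or monocyte-like cells, and 7.52% and 9.14% in B cell-like cells. It was 5.20% and 5.21% in plasma cell-like and 33.5% and 32.4% in ILC3-like cells. The part of these marker levels in the results was not tested.

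**Figure D4:**
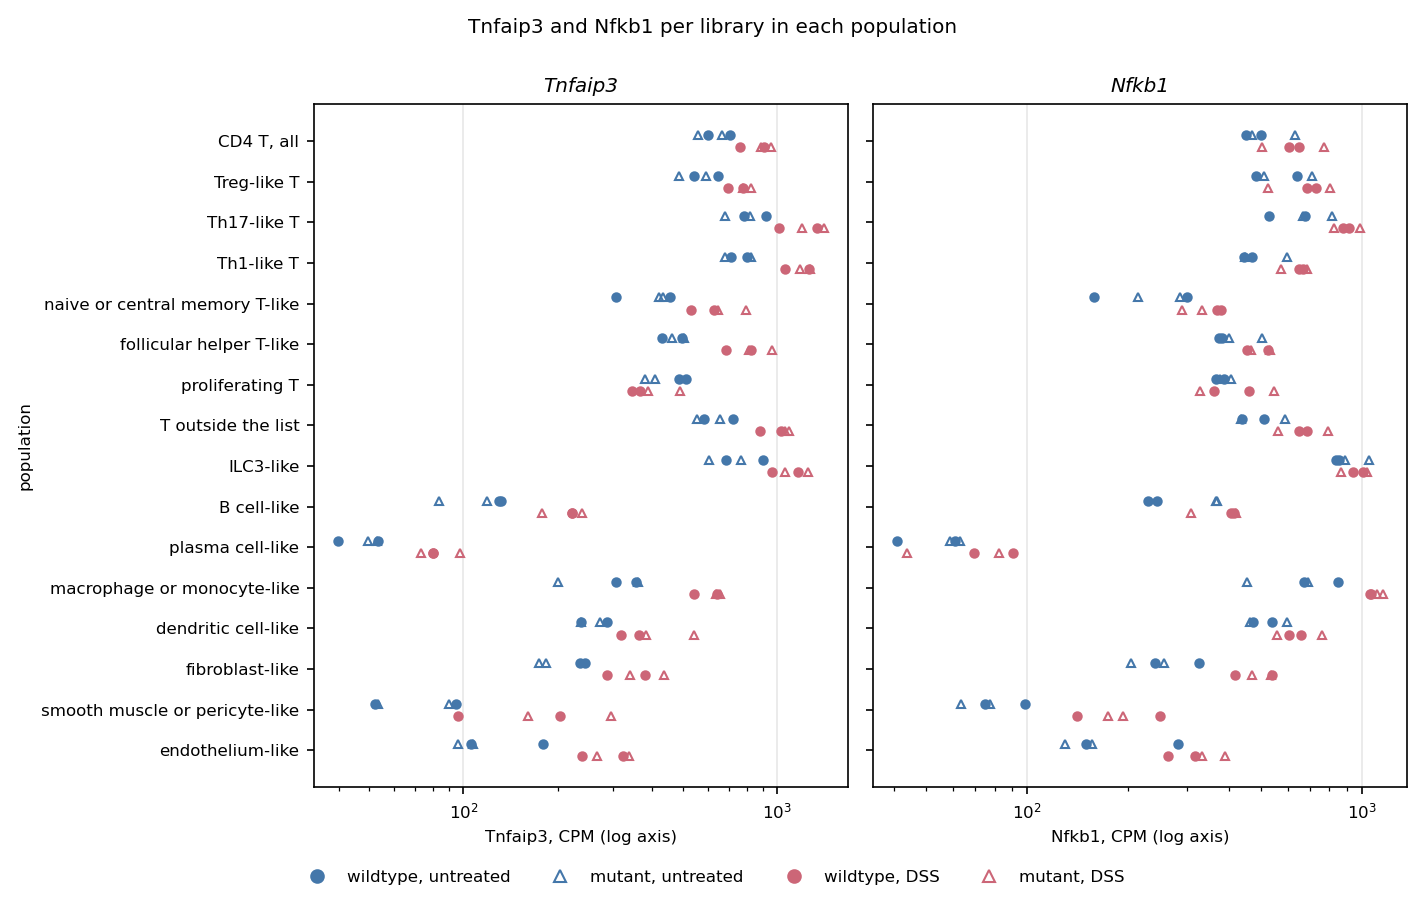
Tnfaip3 (left) and Nfkb1 (right) in CPM on a log axis, 1 point per library in the 16 tested populations (rows). Blue marks untreated and red DSS libraries, with circles for wildtype and open triangles for mutant. In B cell-, macrophage-, smooth muscle- and endothelium-like cells every red Tnfaip3 point lies right of every blue one, while the Nfkb1 points of CD4 T cells overlap.

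The RORγt mutation gave no called member when averaged over treatments. In the 143 tests of a member in a population 0 passed (edgeR), with 17 at an unadjusted p under 0.05 and 0 called by DESeq2. Of the tests of all genes 3.45% had such an unadjusted p. The share of all genes called was 0% in 14 of the 16 populations, 0.121% in follicular helper T-like and 0.0166% in ILC3-like cells. The lowest adjusted p was 0.680, for Nfkbid in naive or central memory T-like cells (0.89 ± 0.30), which rests on 6 to 37 UMIs per library.

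In CD4 T cells of untreated mice, Rel and Nfkbid were higher in both mutant libraries, by a difference that did not pass in edgeR without a block and passed with a replicate block and with DESeq2. Rel was at 277 and 338 CPM in wildtype and 434 and 552 in mutant, and after DSS at 387 and 364 in wildtype and 379 and 338 in mutant. The untreated estimate was 0.68 ± 0.15 (unadjusted p = 0.00125, edgeR adjusted p = 0.549). Nfkbid was at 32.7 and 46.5 CPM in untreated wildtype, 65.8 and 78.5 in untreated mutant, 45.3 and 46.5 in wildtype after DSS and 49.2 and 54.4 in mutant after DSS. Its estimate was 0.86 ± 0.17 (unadjusted p = 0.000452, edgeR adjusted p = 0.409). Both were thus highest in the same 2 libraries that had the high heat-shock sums, and the part of those genes in the result was not tested. Follicular helper T-like cells also took a larger share of the CD4 T cells there, 18.3 and 24.3% against 10.9 and 14.6% in untreated wildtype. Within that subset Rel was at 405 and 456 CPM in untreated wildtype and 598 and 723 in untreated mutant (0.63 ± 0.16, edgeR adjusted p = 0.142). Nfkbid was at 47.6 and 52.6 CPM and at 78.6 and 83.3 there (0.70 ± 0.22, edgeR adjusted p = 0.511). By edgeR 0 of 9 members and 0% of genes were called for the mutation in untreated mice, with 3 members and 5.25% of genes at an unadjusted p under 0.05, while DESeq2 called 2 (Rel and Nfkbid) and 0.394% of the genes to which it gave an adjusted p. With the replicate block, which pairs neighbouring animal numbers, the same 2 were called (edgeR adjusted p = 0.0350 for Rel and 0.0232 for Nfkbid) and 0.163% of genes. That pairing is not a stated one. After DSS no member reached an unadjusted p of 0.05 (1.70% of genes did, 0% were called, and DESeq2 called 0 members), and the estimates ran from -0.19 to 0.16. The interaction, the difference between the DSS effects in mutant and wildtype, called 0 of 9 members and 0% of genes, with unadjusted p of 0.00545 for Rel, 0.0140 for Nfkbid and 0.0416 for Nfkbia and an adjusted p of 0.998 for each. DESeq2 called 0 members there.

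B cell-like cells, 4183 cells in 1 cluster with 159 to 1364 per library, showed the Nfkbid pattern past the threshold. These contrasts within B cell-like cells were read out after the values had been seen and were not among the planned tests. Nfkbid, the gene of IκBNS, which B cells are known to need for antibody responses and plasma cell formation, was at 118 and 143 CPM in untreated wildtype and 267 and 237 in untreated mutant. After DSS it was at 184 and 202.8 CPM in wildtype and 154 and 146 in mutant. In untreated mice the mutant estimate was 0.97 ± 0.17 (edgeR adjusted p = 0.00282), 1 of 9 members where 0.283% of genes were called. It rests on 55 to 737 UMIs per library, and the call was lost without wildtype untreated replicate 1 or mutant untreated replicate 1. After DSS the mutant contrast called 0 of 9 members and 0% of genes, with the Nfkbid estimate at -0.38 ± 0.19.

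The DSS effect on Nfkbid differed between the genotypes in these cells. It was 0.48 ± 0.19 in wildtype (edgeR adjusted p = 0.235) and -0.86 ± 0.16 in mutant (adjusted p = 0.00218), and the interaction was -1.34 ± 0.25 (edgeR adjusted p = 0.0156). This was 1 of 9 members where 0.164% of genes were called. Over all populations, 1 of 143 such interaction tests was called and 28 had an unadjusted p under 0.05, beside 4.15% of the tests of all genes. These tests share libraries and cells. The share of genes called for the interaction was 0.0142% in Th17-like, 0.164% in naive or central memory T-like and 0.0942% in follicular helper T-like cells and 0% in the other 12 populations. The Nfkbid interaction was lost in 6 of the 8 fits that left out 1 library (adjusted p up to 0.259, without wildtype untreated replicate 1) and stood without wildtype untreated replicate 2 or mutant DSS replicate 2. DESeq2 called it (adjusted p = 0.0175).

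In mutant B cell-like cells DSS moved 5 of 9 members, where 7.29% of genes were called. Rel (-0.51 ± 0.14), Relb (-0.79 ± 0.19), Nfkbia (-0.87 ± 0.16) and Nfkbid fell, and Tnfaip3 rose (0.93 ± 0.18). Nfkbia, at 535 and 590 CPM before and 375 and 282 after, was called without any 1 library, whereas the Rel call was lost without any of the 4 mutant libraries. Relb lost the call without either mutant untreated library or mutant DSS replicate 2, Nfkbid without mutant DSS replicate 1, and Tnfaip3 without mutant untreated replicate 1 or mutant DSS replicate 1. In wildtype B cell-like cells 1 of 9 members was called (0.954% of genes), Nfkb1, which rose by 0.71 ± 0.17 from 245 and 230 to 406 and 416 CPM (edgeR adjusted p = 0.0408), a call lost without any of the 6 libraries other than the mutant DSS ones. The heat-shock sums in B cell-like cells were 8357 and 12099 CPM in untreated wildtype, 23229 and 21482 in untreated mutant and 10765 to 14092 after DSS. They were thus highest in the same 2 libraries as Nfkbid. The 6 plasma cell markers summed to 2327 and 2028 CPM in untreated mutant and 5519 and 4022 in mutant after DSS, against 2648 and 1884 in untreated wildtype and 1663 and 3259 in wildtype after DSS. The part of either in the results was not tested.

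**Figure D5:**
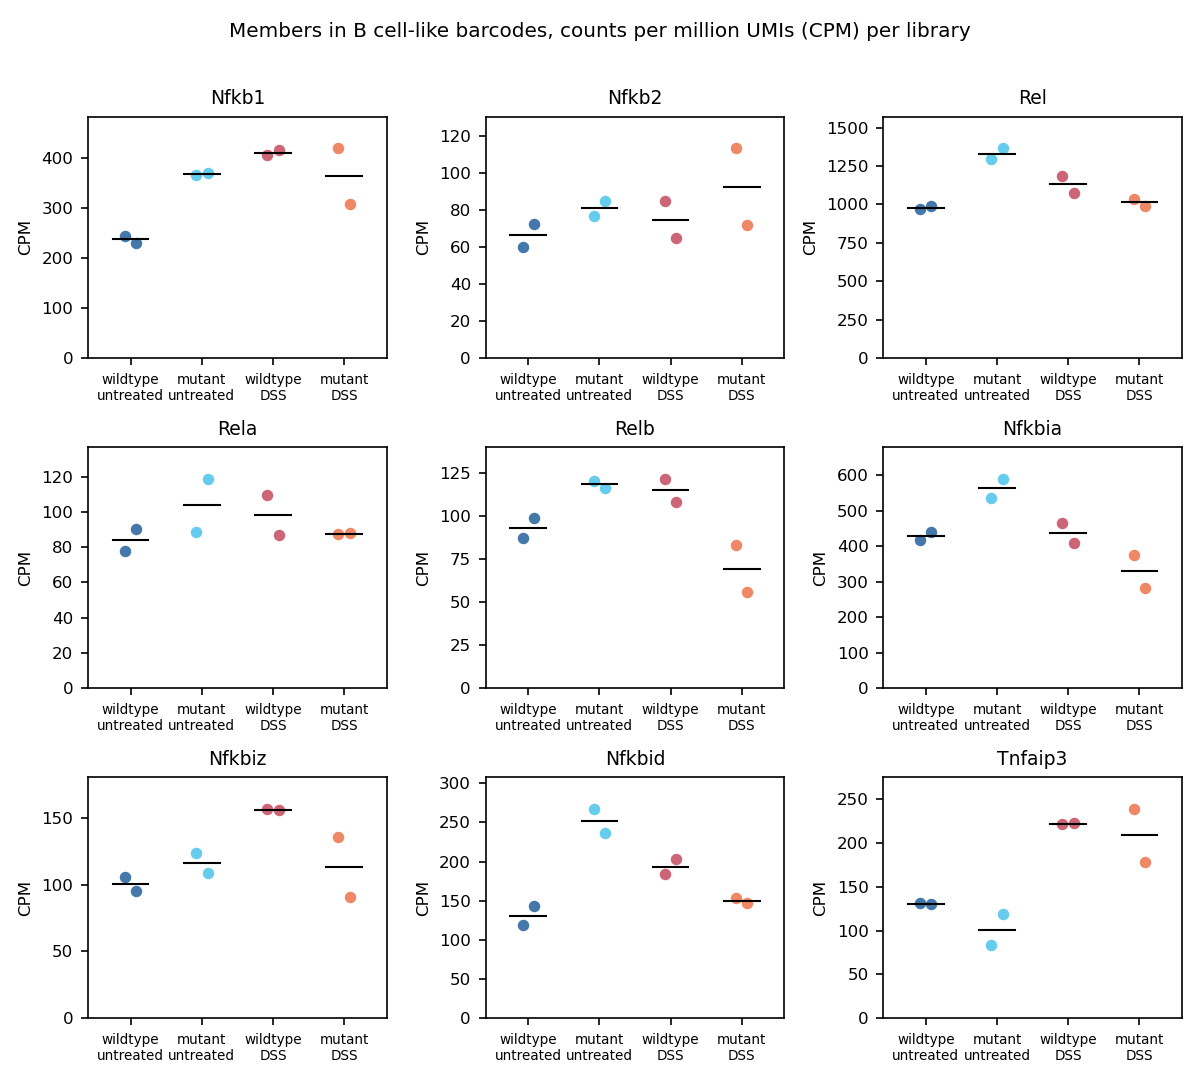
Level of each member in B cell-like cells in CPM, 1 point per library and a bar at the mean of the 2 libraries of each group. Nfkbid is highest in the untreated mutant libraries (267 and 237 CPM) and Tnfaip3 is at 131 CPM or less in every untreated library and at 178 or more in every DSS library.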

How the data were processed

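Droplet single-cell 3′ RNA libraries of 8 samples were analysed as deposited. The authors deposited UMI counts per gene and barcode and a list of kept cells, and the submitters' processing notes name Cell Ranger 3.1.0, Seurat 4.0.1 and mm10. All 27420 kept cells had at least 400 genes and under 20% mitochondrial counts. Kept cells and 69301 other barcodes within those limits were clustered (30 principal components, Leiden resolution 1.0, leidenalg 0.10.2) and named from marker lists, so names may differ from the authors'. No doublet caller was run. Counts were summed per population and library and tested with edgeR 4.0.16 (R 4.3.3; quasi-likelihood, TMM, filter on low counts, 1 mean per group over all 8 libraries, Benjamini-Hochberg adjustment over all genes, threshold 0.05). DESeq2 1.42.0, no filter, each library left out and other cell sets were alternatives. The edgeR step was tested on counts simulated from the CD4 T cells, for the 2 averaged contrasts. The 9 members were named in every comparison, and of each pathway list up to 4 called genes, lowest adjusted p first. One further pathway list is not reported here. The members and lists were chosen with earlier results of these data known. With 2 libraries a group, edgeR p-values set the group differences against a spread between libraries estimated over all 4 groups and across genes.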

Additional observations from a re-analysis of the deposited data

Results flagged for a closer look

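In B cell-like cells the DSS effect on Nfkbid differed between the genotypes by -1.34 on the log2 scale (mutant minus wildtype), and the test of the difference itself passed (edgeR adjusted p = 0.0156). It was the 1 such test of 143 that passed. The call was lost in most of the fits that left out 1 library. The untreated mutant libraries, highest in Nfkbid, also had the highest heat-shock sums in these cells (23229 and 21482 CPM), and the part of those genes was not tested. The contrast within B cell-like cells was read out after the values had been seen.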

How the results depend on the processing

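No member's log2 fold change that was called changed sign: of 4039 single values under alternatives 88 lost the call, 45 gained one and 3906 stayed on the same side of the threshold, of which 316 estimates that were not called changed sign. In CD4 T cells the number of members called for DSS in mutant was 0, and 3 with DESeq2 or 5 with no filter on low counts. For the mutation in untreated mice it was 0, and 2 with DESeq2, 3 with no filter and 2 (Rel and Nfkbid) with a replicate block. That block takes neighbouring animal numbers as pairs. It is not a stated pairing. Over 5205 genes the deviations of same-numbered libraries from their group mean correlated at 0.177 untreated and 0.291 after DSS. With 2 libraries a group the 2 deviations mirror each other, and the other pairing would only turn the sign. These correlations therefore cannot show a pairing. With no filter the interaction called 1 member, the averaged DSS contrast 2 and the averaged mutant contrast 1. Leaving out 1 library gave 0 to 1 members for the averaged DSS contrast in CD4 T cells and in Treg-like cells and 0 to 2 in Th17-like cells, where no filter gave 3. Over the other 13 populations 22 tests were called for averaged DSS, 10 to 23 without 1 library. There the mutation gave 0, and 1 with no filter. Pooling UMIs over libraries kept the highest population of 6 of 9 members (not Rel, Nfkbia and Nfkbiz). With pooling Rel was highest in B cell-like cells, and Nfkbia and Nfkbiz were highest in enteric glia-like cells. No CD4 T cell cluster was led by heat-shock genes, so that alternative was not run there. Where an alternative altered a call, the cause was not tested. Nfkbid rests on few UMIs in some populations, 1 to 16 per library in smooth muscle- or pericyte-like cells, where it was not tested, and 6 to 37 in naive or central memory T-like cells.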
